A study of Mus musculus with 4 samples.

Results

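Mpped2 was followed at the level of the gene, with Illumina short reads, and of its isoforms, with Nanopore long reads, in single brain cells of a C57BL/6 mouse embryo at E18. Cells from cortex, hippocampus and ventricular zone were captured with the 10x Genomics Chromium system in 1 emulsion, from which 2 portions, here called the 190 cell and the 951 cell aliquot, were carried through both sequencing platforms, giving 4 libraries. No treatment or genotype was compared, and the aliquots are technical replicates of 1 cell suspension from a wild-type embryo. Mpped2 was 1 of 27998 genes of the Illumina matrix, and its 6 isoforms were all rows with this gene name among 31986 isoform rows of the Nanopore matrices. Cells with at least 1400 genes detected by Illumina were kept, which were 186 of 190 and 935 of 951 cells. The gene was selected on these same cells for its isoform shares. In cells with at least 10 Mpped2 unique molecular identifiers (UMIs, each counting 1 captured RNA molecule) the cell's own most frequent isoform held a larger share than the isoform held in the pooled cells. Isoform shares by cell and class are therefore given as a description without a test.

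Mpped2 encodes a metallophosphodiesterase, an enzyme that splits cyclic nucleotides and related phosphodiester bonds with the help of metal ions, and the gene is known for its expression in the fetal brain. Where a gene has several first exons, each transcript starts at a promoter of its own, and the first exon joins a shared second exon by splicing. Noncoding first exons leave the protein unchanged and change the 5′ untranslated region (UTR).

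Mpped2 (ENSMUSG00000016386) lies on the plus strand at chr2:106693269-106868356 of GRCm38, the assembly that mm10 names, and spans 175088 bases in Gencode vM21. The 2 isoforms that carried most UMIs, Mpped2-202 and Mpped2-201, have 7 exons each. Of these, 5 internal exons are identical, the coding sequence of 882 bases is the same and encodes 294 residues, and translation starts in the second exon. The isoforms thus differ in the noncoding first exon and in the annotated end of the last exon. The first exon of Mpped2-202 (chr2:106693269-106693821) has 553 bases with a GC content of 74.5% and 59 CpG dinucleotides. The first exon of Mpped2-201 (chr2:106695601-106695676) starts 2332 bases downstream and has 76 bases with a GC content of 55.3% and 2 CpG dinucleotides. The resulting 5′ UTRs have 673 and 196 bases, and each holds 4 ATG triplets. The last exons begin at the same base and end after 1409 bases in Mpped2-202 and 255 bases in Mpped2-201. The exon junctions below tell the first exons apart, while UMIs were assigned to isoforms by the full exon structure. They show the last 15 bases of the first exon in capitals and the first 15 bases of the shared second exon (chr2:106699288-106699302) in lower case, read from the Gencode vM21 transcripts.
Mpped2-202: CGCAGCCCGGGAAAGaacgcacagtggtat
Mpped2-201: GAGACAAGTTCAGGTaacgcacagtggtat
Mpped2-204: AAGTCCCTCCACCCAaacgcacagtggtat
Mpped2-206: CTGGGAGAGAGGAAGaacgcacagtggtat
These junctions have the second exon in common and differ in every first exon. Mpped2-203 uses the donor site of Mpped2-201 and therefore has the same junction, and is annotated as a noncoding processed transcript, as is Mpped2-205, which starts downstream of the second exon at chr2:106730490.

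**Figure D1:**
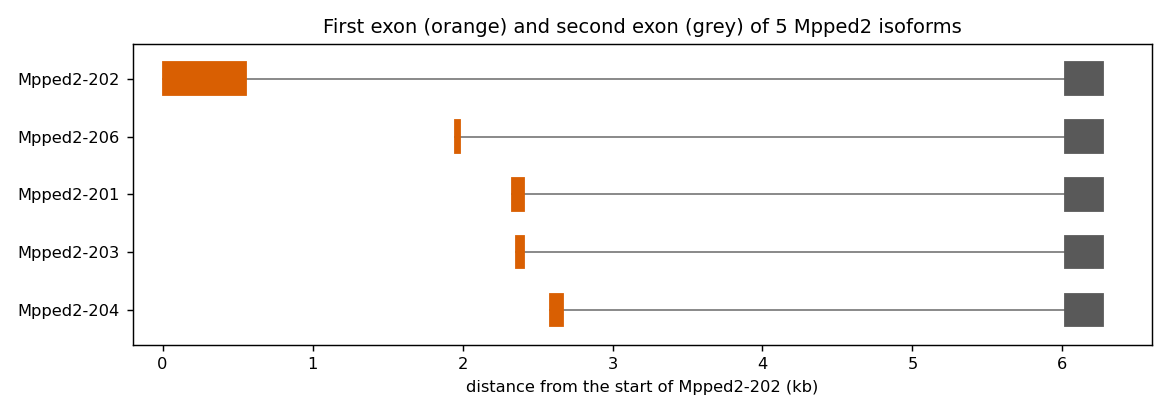
First exon (orange) and second exon (grey) of the 5 Mpped2 isoforms that share the second exon, drawn to scale against the distance in kb from the start of Mpped2-202. The first exon of Mpped2-202 lies farthest upstream and is the longest, with 553 bases against 76 bases for Mpped2-201, which starts 2332 bases downstream.

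Mpped2-202 was the major isoform in both aliquots. It had 229 of 327 Mpped2 Nanopore UMIs in the 190 cell aliquot (70.0%, 95% exact Clopper-Pearson interval 64.7 to 74.9) and 1496 of 2078 in the 951 cell aliquot (72.0%, 70.0 to 73.9). Mpped2-201 had 96 UMIs (29.4%, 24.5 to 34.6) and 561 UMIs (27.0%, 25.1 to 29.0). The aliquots thus differed by less than their intervals, which cover counting error only. The other isoforms were rare. Mpped2-203 had 1 and 7 UMIs, Mpped2-204 1 and 6, Mpped2-205 0 and 5 and Mpped2-206 0 and 3, so that none of them exceeded 0.337% of the UMIs of an aliquot. A count of 0 of 327 UMIs has an upper exact limit of 1.12%. The 2 first exons of Mpped2-202 and Mpped2-201 together account for nearly all assigned Mpped2 molecules. A UMI was assigned only where its exon structure fully matched an isoform, and Mpped2-202 has 2848 bases against 1217 bases of Mpped2-201. The paper reports that the cDNA of some long transcripts was incomplete toward the 5′ end. Whether transcript length moved the shares and levels of the isoforms was not tested.

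The cells were grouped by clustering on the Illumina counts, with Mpped2 left out of the genes used, and clusters were named from fixed marker lists. The suffix -like marks that names rest on these markers alone, under cut-offs that were chosen with the clusters in view. The list for cycling radial glia held genes of dividing cells and no radial glia gene. Of the cells so named, 18 of 24 and 54 of 90 had a UMI of a GABAergic lineage gene, as described below. From 10 clusters, 7 classes reached 5 or more cells per aliquot, of 13 to 43 cells in the 190 cell aliquot and 53 to 236 cells in the 951 cell aliquot. A further class of 3 and 13 Cajal-Retzius-like cells was too small for a test, and 10 cells with at least 3 markers of microglia, oligodendrocyte precursors or mural cells were set aside. The cells held 1809081 and 8295650 Illumina UMIs and 993220 and 4889148 Nanopore UMIs assigned to an isoform. Of the kept cell barcodes, 12 occurred in both aliquots, and leaving them out changed no call of Mpped2.

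Mpped2 was highest in immature GABAergic-like cells, the class marked by Ebf1, Isl1, Zfhx3 and Foxp1, genes of developing striatal neurons. Of its 141 cells in the 951 cell aliquot, 27 had a UMI of Ebf1, 44 of Isl1, 50 of Zfhx3 and 65 of Foxp1. For each of these 4 genes, in both aliquots, the Mpped2 level was lower in the cells of the class with its UMI than in those without it. The gap was small for Zfhx3 in the 951 cell aliquot, with 1179.8 against 1202.4 Mpped2 UMIs per 1000000 UMIs. For Meis2, another marker of the class, the level was higher in the cells with the UMI in both aliquots. The same held for Foxp2, Six3 and Sp9, further genes of striatal neurons, so such genes did not go in a single direction. Levels are Mpped2 UMIs per 1000000 UMIs of the class (CPM), with exact 95% Poisson intervals that cover counting error only. The levels here and in the next paragraph are Illumina counts, taken near the 3′ end of the RNA and not divided by transcript length. Immature GABAergic-like cells had 678.5 CPM (560.6 to 813.7) in the 190 cell aliquot and 1193.7 CPM (1120.2 to 1270.8) in the 951 cell aliquot. The intervals of the aliquots did not overlap, so this class varied between technical replicates beyond counting error. Cycling radial glia-like cells had 370.3 CPM (305.7 to 444.5) and 594.8 CPM (547.1 to 645.6), again without overlap. Mature GABAergic-like cells, with Sst, Maf and Nxph1 as leading genes of cortical interneurons, had 373.3 CPM (261.4 to 516.8) and 497.8 CPM (444.3 to 556.0). These classes followed the immature GABAergic-like cells in both aliquots and did not differ from each other beyond the spread of the aliquots.

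The other 4 tested classes were close together. Radial glia-like cells, the neural stem cells of the ventricular zone, had 244.1 and 252.7 CPM. Intermediate progenitor-like cells, which express Eomes and produce glutamatergic neurons, had 263.7 and 230.1 CPM. The leading genes of their cluster included the microglial genes Ccl3, Ccl4, C1qc and Tyrobp. These were ranked over all 88 cells of the cluster, before cells were set aside, while the class tested holds 18 and 68 cells. Immature glutamatergic-like cells had 245.2 and 248.2 CPM and mature glutamatergic-like cells had 247.0 and 262.7 CPM. All of these values lay between 230.1 and 263.7 CPM with overlapping intervals, so no order among the 4 classes can be read. Cajal-Retzius-like cells, early neurons that secrete Reelin, were lowest, with 1 UMI in 3 cells and 4 UMIs in 13 cells (32.0 CPM, 0.809 to 178.0, and 31.9 CPM, 8.69 to 81.7). Free RNA in the droplets can give such counts. In the 951 cell aliquot the upper limit of 81.7 CPM lay under the lower limit of each of the 7 classes.

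**Figure D2:**
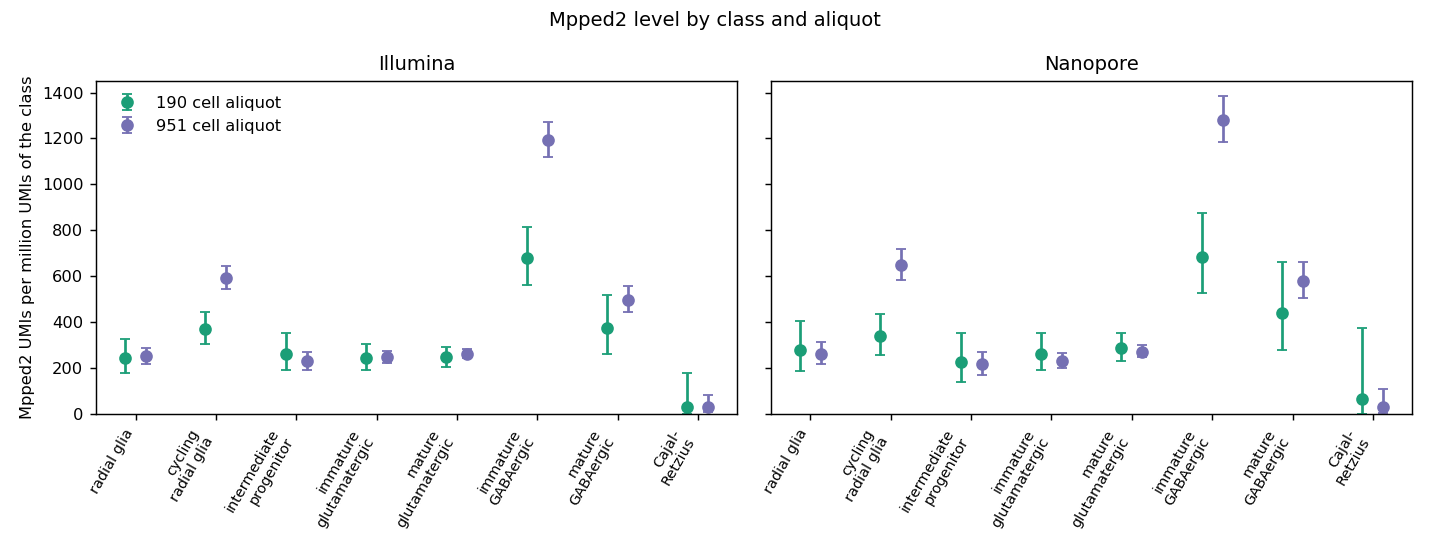
Mpped2 UMIs per 1000000 UMIs (CPM) by class (x axis) and aliquot (green, 190 cells, and violet, 951 cells) for Illumina (left) and Nanopore (right), with exact 95% Poisson intervals as bars. Immature GABAergic-like cells stand highest on both platforms, with 1193.7 CPM by Illumina and 1281.4 CPM by Nanopore in the 951 cell aliquot, and Cajal-Retzius-like cells lowest.

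Between neighbouring classes, Illumina counts summed per class and aliquot were tested with the quasi-likelihood test of edgeR, with Benjamini-Hochberg adjustment over 8460 genes. In immature GABAergic-like against immature glutamatergic-like cells, Mpped2 rose 3.97-fold (log2 1.99, SE 0.26, adjusted p = 2.85e-05), where 439 genes (5.19% of those tested) were called, 2.26% higher and 2.93% lower. Both GABAergic sums stood above both glutamatergic sums, and the call held when any of the 4 sums was left out, with log2 values between 1.5 and 2.37. The mature and the immature GABAergic-like class carry markers of different neurons, cortical interneurons and striatal neurons, so that cell type and maturation cannot be told apart in their contrast. Mpped2 was lower in the mature GABAergic-like class (log2 -1.20, SE 0.26, adjusted p = 0.0116), where 231 genes (2.73%) were called, 1.25% higher and 1.48% lower. This call rested on single libraries, since it was lost without the mature GABAergic-like cells of the 190 cell aliquot (log2 -0.96, adjusted p = 0.181) and without the immature GABAergic-like cells of the 951 cell aliquot (log2 -0.69, adjusted p = 0.292), and also with Nanopore sums (log2 -1.08, adjusted p = 0.149). Against mature glutamatergic-like cells, the mature GABAergic-like class differed by log2 0.67 (SE 0.26, adjusted p = 0.143), which was not called, where 767 genes (9.07%) were called, 3.32% higher and 5.74% lower. With the aliquot as a replicate block the paired fit called this difference (log2 0.71, adjusted p = 3.71e-04), which no other alternative did. Without the mature GABAergic-like cells of the 951 cell aliquot the value was 0.19 (adjusted p = 0.865).

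Along the glutamatergic lineage no difference of the gene was called. Intermediate progenitor-like minus radial glia-like cells gave log2 -0.03 (2 SE interval -0.59 to 0.52, adjusted p = 0.977), where 1350 genes (16.0%) were called, 7.40% higher and 8.56% lower. Immature glutamatergic-like minus intermediate progenitor-like cells gave log2 0.01 (-0.53 to 0.55, adjusted p = 1.00), where 667 genes (7.88%) were called, 4.10% higher and 3.78% lower. Mature minus immature glutamatergic-like cells gave log2 0.12 (-0.39 to 0.64, adjusted p = 0.957), where 298 genes (3.52%) were called, 2.08% higher and 1.44% lower. The difference between the mature and the immature GABAergic-like class, less that between the mature and the immature glutamatergic-like class, was log2 -1.32 (SE 0.37, adjusted p = 0.0819). It was tested after the values had been seen and did not pass, where 173 genes (2.04%) were called. These p-values rest on 2 aliquots of 1 suspension and cover technical spread, not the spread between animals.

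Cycling radial glia-like cells were named from Top2a, Mki67 and other genes of dividing cells, without a radial glia gene. Mpped2 was 2.05-fold higher there than in radial glia-like cells (log2 1.04, SE 0.27, adjusted p = 0.0127), where 1049 genes (12.4%) were called, 6.56% higher and 5.84% lower. Cell division and GABAergic lineage cannot be told apart in this contrast. The call was lost with Nanopore sums (log2 1.05, adjusted p = 0.0670), without the cycling cells of the 951 cell aliquot (log2 0.61, adjusted p = 0.229), and without the radial glia-like cells of either the 190 (log2 0.99, adjusted p = 0.109) or the 951 cell aliquot (log2 1.10, adjusted p = 0.173). The 8 markers of immature GABAergic cells summed to 1146.3 and 1550.8 CPM in the cycling class, with none at 0, against 621.3 and 693.9 CPM in radial glia-like cells, with Isl1, Zfhx3, Dlx6os1 and Dlx5 at 0 in the 190 cell aliquot and none at 0 in the 951 cell aliquot. This sum did not follow Mpped2 over the other classes, since it was 1122.2 and 1241.3 CPM in intermediate progenitor-like, 1324.9 and 1269.2 CPM in immature glutamatergic-like and 1078.4 and 857.7 CPM in mature GABAergic-like cells. Meis2 alone held 571.4 and 638.3 CPM of the sum in radial glia-like cells and 950.5 and 1112.0 CPM in intermediate progenitor-like cells. It held 1242.1 and 1187.1 CPM in immature glutamatergic-like cells, but 10.4 and 22.2 CPM in mature GABAergic-like cells. Outside the GABAergic-like and cycling classes the sums given here thus mostly count Meis2. Of the other markers, Dlx6os1 was at 196.4 and 167.1 CPM in the cycling class, against 0 and 4.84 CPM in radial glia-like and 0 and 10.1 CPM in intermediate progenitor-like cells. Of the cycling cells, 18 of 24 and 54 of 90 had a UMI of Dlx6os1, Dlx5 or Gad2, genes of the GABAergic lineage, at median depths of 11987.5 and 8618.0 UMIs. In radial glia-like cells, 1 of 13 and 9 of 53 had such a UMI, at median depths of 32698.0 and 18098.0 UMIs, and 4 of 18 and 15 of 68 intermediate progenitor-like cells.

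Within the cycling class Mpped2 was higher in cells with a UMI of these GABAergic genes, which is given as a description. The genes were chosen after values were seen. Dlx6os1 and Gad2 are also among the genes most like Mpped2 (r of 0.88 and 0.85) over sums that include this class. Cycling cells with such a UMI had 465.6 CPM (382.3 to 561.7) and 1027.5 CPM (935.5 to 1126.0) of Mpped2. Cycling cells without it had 78.5 CPM (28.8 to 170.8) and 222.2 CPM (183.4 to 266.7). The intervals did not overlap in either aliquot. The same split gave no such rise in the neighbouring classes, where intervals overlapped. Radial glia-like cells had 183.5 and 249.8 CPM with such a UMI, on 1 and 9 cells, against 257.5 and 253.7 CPM without it. Intermediate progenitor-like cells had 279.4 and 213.1 CPM against 258.7 and 234.7 CPM. Without the cycling cells that had such a UMI, an alternative added after the data had been seen, the difference from radial glia-like cells changed sign to log2 -0.50 (adjusted p = 0.511). Under this split the higher Mpped2 level of the class lay in cells with UMIs of these GABAergic genes, and for these cells the markers go against the name radial glia. Their Mpped2-202 share was 81.6% (76.7 to 85.8) in the 951 cell aliquot, against 71.8% (60.5 to 81.4) in the cycling cells without such a UMI. In the 190 cell aliquot it was 87.9% (76.7 to 95) against 100% of 2 UMIs, the other way round.

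Over both aliquots the share of Mpped2-202 ran from 53.8% to 84.6% over the 7 classes. Mpped2-202 had its highest shares in the progenitor classes. It held 82.1% (63.1 to 93.9) and 85.2% (77.8 to 90.8) of the Mpped2 UMIs in radial glia-like cells of the 190 and the 951 cell aliquot. Cycling radial glia-like cells had 88.3% (77.4 to 95.2) and 79.6% (75.1 to 83.5), and intermediate progenitor-like cells 75% (50.9 to 91.3) and 83.1% (72.9 to 90.7). The lowest shares were those of immature glutamatergic-like cells, with 47.7% (32.5 to 63.3) and 55.0% (48.0 to 61.9). There Mpped2-201 had 23 against 21 UMIs of Mpped2-202 in the 190 cell aliquot and 92 against 115 UMIs in the 951 cell aliquot. The intervals of radial glia-like and immature glutamatergic-like cells did not overlap in the 951 cell aliquot and overlapped slightly in the 190 cell aliquot, where radial glia-like cells had 28 UMIs.

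The remaining neuronal classes lay in between. Mature glutamatergic-like cells had 70.9% (60.1 to 80.2) and 68.7% (64.1 to 73.0), above immature glutamatergic-like cells without overlap of the intervals in the 951 cell aliquot. Immature GABAergic-like cells had 66.2% (53.4 to 77.4) and 73.3% (69.7 to 76.7), and mature GABAergic-like cells 52.2% (30.6 to 73.2) and 64.9% (58.1 to 71.4), with overlapping intervals in both aliquots. The low share in immature glutamatergic-like cells was seen in both clusters of that class, with 51.0% (40.9 to 61.0) and 55.6% (47.3 to 63.7) over both aliquots. The clusters of the mature glutamatergic-like class had 67.3% (60.6 to 73.5) and 70.3% (64.8 to 75.4). UMIs of a cell are not independent draws, so that intervals over pooled UMIs are too narrow.

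**Figure D3:**
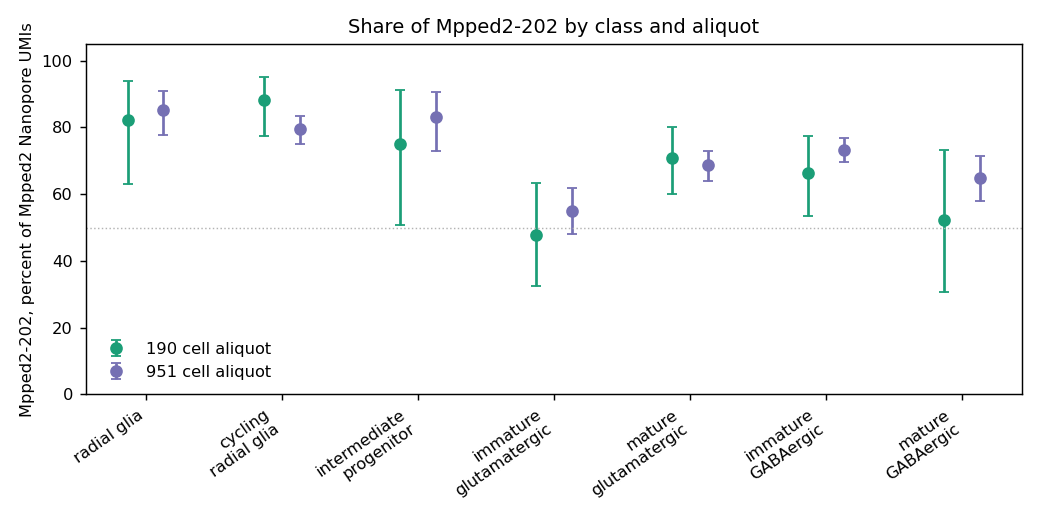
Share of Mpped2-202 among Mpped2 Nanopore UMIs (y axis, percent, with exact 95% binomial intervals) by class and aliquot (green, 190 cells, and violet, 951 cells). The dotted line marks equal parts, and immature glutamatergic-like cells lie nearest to it in the 951 cell aliquot, with 55.0% against 85.2% in radial glia-like cells.

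The levels of the isoforms, set against the Nanopore UMIs of the class, are given as a description without intervals. From intermediate progenitor-like to immature glutamatergic-like cells the gene as a whole was level, while Mpped2-202 went from 171.5 to 125.5 CPM in the 190 cell aliquot and from 180.5 to 128.6 CPM in the 951 cell aliquot. Over the same step Mpped2-201 went from 45.7 to 137.4 CPM and from 33.8 to 102.9 CPM. The ratios of the classes were thus 0.732 and 0.712 for Mpped2-202 and 3.01 and 3.04 for Mpped2-201, nearly the same in both aliquots. In the progenitors they rest on 15 and 64 UMIs of Mpped2-202 and on 4 and 12 UMIs of Mpped2-201. Whether Mpped2-202 fell beyond counting error was not tested. In mature glutamatergic-like cells Mpped2-202 stood at 203.6 and 187.4 CPM and Mpped2-201 at 83.4 and 83.0 CPM.

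Immature GABAergic-like cells had the highest level of both isoforms in both aliquots, for Mpped2-201 in the 190 cell aliquot on only 21 UMIs. Mpped2-202 was at 453.6 and 939.3 CPM and Mpped2-201 at 221.5 and 328.0 CPM. Over immature glutamatergic-like cells this was 3.61 and 7.30 times the level for Mpped2-202, and 1.61 and 3.19 times for Mpped2-201. Of the 21 Mpped2-201 UMIs of the class in the 190 cell aliquot, 11 came from a single cell. The rank of Mpped2-201 and its ratio of 1.61 there rest on this cell. Without its UMIs the class would stand below immature glutamatergic-like (137.4 CPM) and mature GABAergic-like cells (210.9 CPM) of that aliquot. Mature GABAergic-like cells had 210.9 and 200.4 CPM of Mpped2-201, close to the immature GABAergic-like cells of the 190 cell aliquot, and 230.1 and 376.1 CPM of Mpped2-202. The difference between mature and immature GABAergic-like cells was larger for Mpped2-202 in both aliquots. Immature cells had 1.97 and 2.5 times the level of mature cells, against 1.05 and 1.64 times for Mpped2-201. The value of 1.05 and the closeness in the 190 cell aliquot also rest on the single cell.

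**Figure D4:**
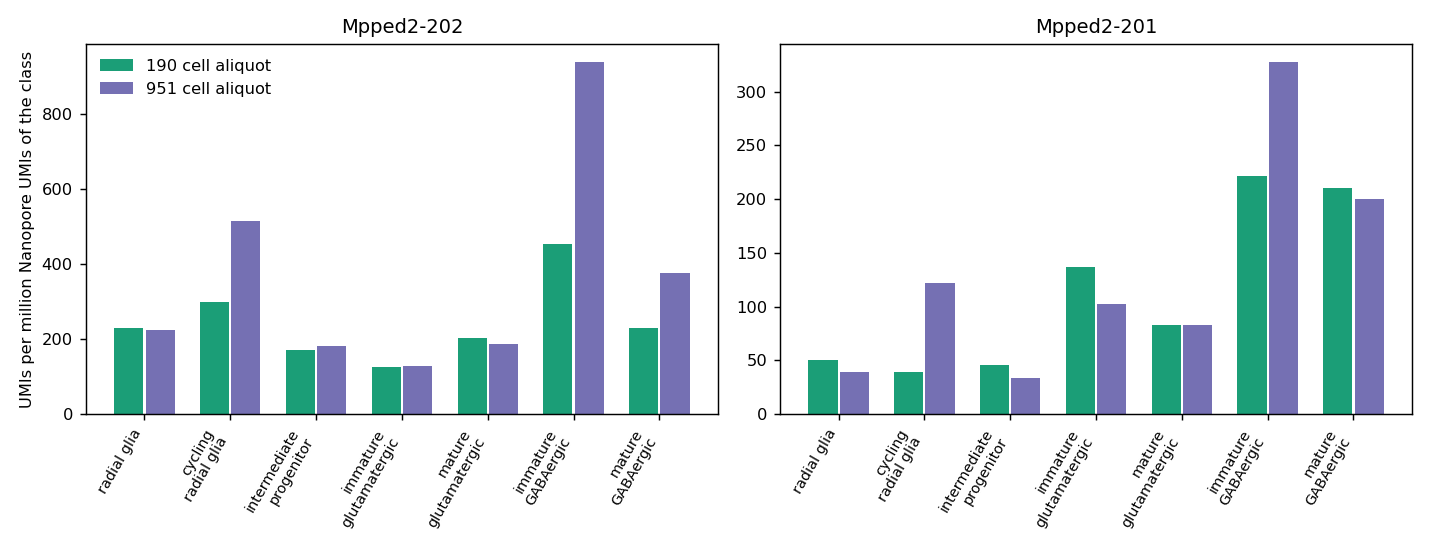
Level of Mpped2-202 (left) and Mpped2-201 (right) in UMIs per 1000000 Nanopore UMIs (CPM) by class and aliquot (green, 190 cells, and violet, 951 cells), on y axes that differ in scale. Mpped2-201 is at 33.8 to 50 CPM in radial glia-like and intermediate progenitor-like cells. In the 190 and the 951 cell aliquot it stands at 137.4 and 102.9 CPM in immature glutamatergic-like cells and at 39.5 and 122.1 CPM in cycling radial glia-like cells.

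In single cells, 710 of 1121 cells had a Nanopore UMI of Mpped2 and the highest count was 25. At least 10 UMIs were found in 40 cells, of which 3 were from the 190 cell aliquot. They were 23 immature GABAergic-like, 10 cycling radial glia-like, 3 radial glia-like, 2 mature glutamatergic-like and 2 mature GABAergic-like cells. Of these cells 38 held UMIs of several isoforms and 2 held Mpped2-202 alone. For comparison, Cajal-Retzius-like cells averaged 0.333 and 0.154 Mpped2 UMIs per cell, and all 3 of their UMIs were of Mpped2-202. A single UMI of another isoform in a cell can come from free RNA, but these cells give no measure of that. The cell's own major isoform held 79.4% on average (median 81.8%), against 71.7% for Mpped2-202 in the pooled cells. These are the values the gene was selected on. The own major share is the largest share of each cell, so counting error alone can raise it above a pooled share. The pooled share was taken over 1121 cells and the own major share over these 40. Of the 34 genes with at least 1000 UMIs, a pooled major share of at most 75% and at least 20 such cells, Mpped2 ranked 10 by this difference, with 7.71 percentage points against a median of 3.72.

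The Mpped2-202 share of these 40 cells ran from 14.3% to 100%, with a median of 80.9%. Mpped2-201 held most UMIs in 9 cells and Mpped2-202 in 30. In the 23 immature GABAergic-like cells the share ran from 14.3% over a median of 80.0% to 100%. Its SD was 29.6 percentage points. The lowest cells, of 14 UMIs each, had 2 of Mpped2-202 and 12 of Mpped2-201 (14.3%, 1.78 to 42.8), 2 and 11 (14.3%, 1.78 to 42.8), and 3 and 11 (21.4%, 4.66 to 50.8). The highest had 12 UMIs, all of Mpped2-202 (73.5 to 100). Cells of the same class thus lay on both sides of an equal mix, which is the property the gene was selected for, and the cell with 3 and 11 UMIs was from the 190 cell aliquot while the others were from the 951 cell aliquot.

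In the 10 cycling radial glia-like cells the share ran from 33.3% over a median of 88.8% to 95.8%, with an SD of 21.0 percentage points. The lowest had 6 UMIs of Mpped2-202 and 12 of Mpped2-201, and the highest had 23 and 1. Among the 3 radial glia-like cells the share was 83.3%, 91.7% and 100%, and none had more Mpped2-201 than Mpped2-202. Of the cycling cells, the one with 8 UMIs of Mpped2-202 and 3 of Mpped2-201 was called a doublet. The one with 10 and 1 had a barcode found in both aliquots. None of the 23 immature GABAergic-like cells was called a doublet or had a barcode found in both aliquots.

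**Figure D5:**
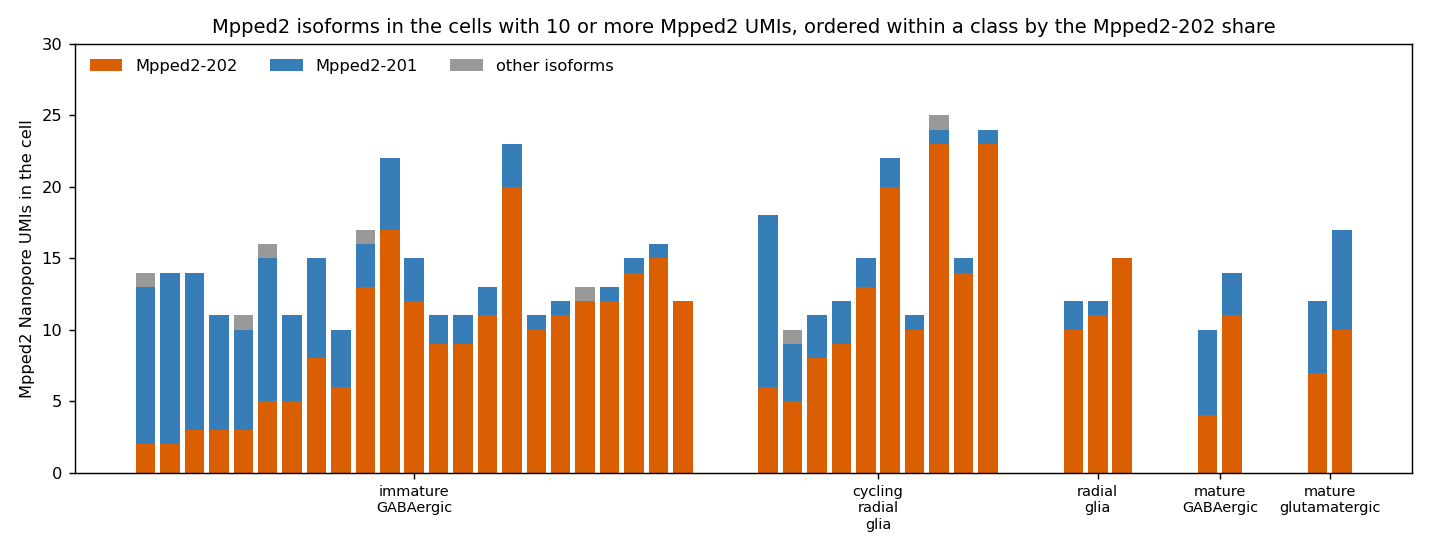
Nanopore UMIs of Mpped2-202 (orange), Mpped2-201 (blue) and other isoforms (grey) in each of the 40 cells with at least 10 Mpped2 UMIs, by class and ordered by the Mpped2-202 share. The immature GABAergic-like cells on the left range from 2 UMIs of Mpped2-202 beside 12 of Mpped2-201 to 12 UMIs of Mpped2-202 alone.

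In immature GABAergic-like cells the pooled share was lower where cells held more Mpped2 UMIs. It was 83.8% (76.8 to 89.3) in 52 cells with 2 to 4 UMIs, 72.5% (65.8 to 78.4) in 30 cells with 5 to 9 UMIs and 66.9% (61.4 to 72.0) in 23 cells with 10 or more UMIs. Over all cells the share was 71.9% (68.8 to 74.7), 70.7% (67.2 to 74.0) and 71.8% (68.0 to 75.5). The mix of classes differed between these groups. Immature GABAergic-like cells were 52 of 340 cells with 2 to 4 UMIs and 23 of 40 cells with 10 or more. The values over all cells therefore cannot show whether classes hold a gradient. Cycling radial glia-like cells had 81.7%, 80.9% and 80.4%. The other classes were not split in this way. These intervals pool the UMIs of cells and are too narrow. The 23 immature GABAergic-like cells with 10 or more UMIs had an SD of 29.6 percentage points, where counting alone gives 12.9. The gene was selected on the shares of such cells, so this gap tests nothing. The median of the 23 cells, 80.0%, lay above their pooled share. Whether the share depends on the number of UMIs was not tested.

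Within the immature GABAergic-like class, cells with and without a UMI of each of 22 genes of striatal projection neurons were compared as a description. In the 951 cell aliquot 14 genes had at least 10 cells on each side, and the Mpped2-202 share was higher in the cells with the UMI for 13 of them. The intervals lay apart for 3 of the 14, Ebf1, Zfhx3 and Foxp1. They pool the UMIs of cells and are too narrow to show a difference between groups of cells. Cells of this class and aliquot with 10 or more UMIs had an SD of 28.6 percentage points, where counting alone gives 12.7. These are cells whose shares the gene was selected on, so the gap is a description. All 14 genes split the same cells, and genes outside the list were not compared, so the count of 13 has no reference. The largest difference was that of Ebf1, a transcription factor of differentiating striatal neurons of the direct pathway. Cells with an Ebf1 UMI had 52 UMIs of Mpped2-202 and 1 of Mpped2-201 (94.5% of 55, 84.9 to 98.9), against 71.3% (67.4 to 74.9) in cells without it. Their Mpped2 level was also lower, at 482.9 against 1378.8 CPM. They held 55 Mpped2 Nanopore UMIs in 27 cells, against 578 in 114 cells without it. Cells of the class with few Mpped2 UMIs had a higher pooled share. Whether the Ebf1 difference goes beyond this was not tested. In the 190 cell aliquot the same direction was seen for the share, with 77.8% (40.0 to 97.2) against 64.3% (50.4 to 76.6), and for the level, with 426.4 against 749.3 CPM, but the share rested on 9 UMIs and the intervals overlapped.

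Of the 11 genes that also had 5 cells on each side in the 190 cell aliquot, 4 had the same sign in both aliquots. Beside Ebf1 these were Isl1, a LIM homeobox factor (differences of 36.1 and 5 percentage points in the 190 and the 951 cell aliquot), Sp8 (36.1 and 12.8) and Pde10a (-24.9 and -6.20), and for the other 7 the sign differed. In the 190 cell aliquot the cells with an Isl1 UMI, like those with a Sp8 UMI, held only 4 Mpped2 UMIs (100%, 39.8 to 100), against 63.9% (50.6 to 75.8) without it. The intervals of Isl1, Sp8 and Pde10a overlapped in both aliquots. Zfhx3 and Foxp1, transcription factors of striatal neurons, went with a higher share in the 951 cell aliquot (80.1% against 69.1%, and 80.7% against 67.4%) and with a lower share in the 190 cell aliquot (57.9% against 69.6%, and 57.1% against 70.5%). Six3, which acts in neurons of the indirect pathway, went with 75.7% against 71.0% in the 951 cell aliquot and with 36.7% (19.9 to 56.1) against 91.4% (76.9 to 98.2) in the 190 cell aliquot. Cells with a Six3 UMI had more Mpped2 in both aliquots, with 941.0 against 579.6 CPM and 1897.8 against 882.6 CPM. A share in the 190 cell aliquot can rest on few cells, since 1 cell with 14 UMIs holds 11 of the 21 Mpped2-201 UMIs of the class there.

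Between platforms, the 190 cell aliquot had 566 Illumina and 327 Nanopore UMIs of Mpped2 (57.8%), where all genes gave 54.9%. The 951 cell aliquot had 3318 and 2078 UMIs (62.6%), where all genes gave 58.9%. Nanopore minus Illumina was log2 0.22 (SE 0.18, adjusted p = 0.366) over 9855 genes, of which 4976 (50.5%) were called. With the aliquot as a replicate block the difference was called (log2 0.22, adjusted p = 0.00171), and it was also called without the Nanopore library of the 190 cell aliquot (log2 0.45, adjusted p = 0.00846). Without the Nanopore library of the 951 cell aliquot it was -0.04. Nanopore counts hold molecules that were assigned to an isoform, and capture and assignment cannot be told apart in this ratio.

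Of 23 further metallophosphoesterase and cyclic nucleotide phosphodiesterase genes, 11 passed the filter on low counts. In immature GABAergic-like against immature glutamatergic-like cells 1 was called higher and 1 lower, where 2.26% and 2.93% of all genes were, and the median log2 value of the 11 was -0.11, against -0.01 for all genes. Mpped1, the paralog of Mpped2, was the gene called lower (log2 -1.98, SE 0.42, adjusted p = 0.0135), with 29.2 and 59.6 CPM in immature GABAergic-like cells and 175.2 and 237.0 CPM in immature glutamatergic-like cells. Pde2a, a phosphodiesterase stimulated by cGMP, was called higher (log2 4.26, SE 0.82, adjusted p = 2.88e-04), with 40.9 and 18.3 CPM against 3.18 and 0.657 CPM. The paralogs thus differed in opposite directions between these classes.

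Mpped1 was also called higher in mature than in immature GABAergic-like cells (log2 2.22, SE 0.44, adjusted p = 0.0151), with 269.6 and 256.8 CPM, a contrast in which Mpped2 was called lower. It was the single gene of the list called there, where 2.73% of all genes were called. It was likewise the single gene called in intermediate progenitor-like against radial glia-like cells, where it was higher (log2 2.42, SE 0.49, adjusted p = 0.00400) and 16.0% of all genes were called. In the other comparisons 1 gene of the 11 was called in each, which is a count too small to set apart from the share of all genes called, between 3.52% and 12.4%. Pde1b was lower in cycling than in radial glia-like cells (log2 -1.72), Pde10a was higher in immature glutamatergic-like than in intermediate progenitor-like cells (log2 1.54), Pde2a was higher in mature than in immature glutamatergic-like cells (log2 4.19), and Pde7a was lower in mature GABAergic-like than in mature glutamatergic-like cells (log2 -1.55).

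Of the 22 striatal genes 12 passed the filter, and several of them were used to name the immature GABAergic-like class or to cluster the cells, so that their counts describe the class and support nothing. Between immature GABAergic-like and immature glutamatergic-like cells 8 were called, all higher, where 2.26% of all genes were, with a median log2 value of 5.25 over the 12. Some of these genes had no UMI in a library, and their fitted values depend on the prior count. Between mature and immature GABAergic-like cells 6 were called, all lower (median -4.41), where 1.48% of all genes were. In cycling against radial glia-like cells 4 were called, all higher, namely Isl1, Zfhx3, Foxp1 and Sp9 (median 1.56), where 6.56% of all genes were. In the remaining comparisons 2 to 5 were called, where 3.52% to 16.0% of all genes were, with medians between 0.03 and 0.82. The median of all genes lay between -0.05 and 0.05 in every comparison.

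The genes whose levels over the 14 sums were most like those of Mpped2, by Pearson's r of log2(CPM + 10) among 5761 genes with at least 200 UMIs, were Isl1 (0.91), Dlx6os1 (0.88), Carhsp1 (0.86), Tpgs2 (0.85) and Gad2 (0.85). The most opposite were Ralgapa2 (-0.86), Trak1 (-0.85) and Mark3 (-0.83). The sums share clusters that were drawn with many of these genes, and the values are a description. Isl1 was at 128.7 and 228.8 CPM in immature GABAergic-like cells and at 3.22 and 43.6 CPM in cycling cells, and lay between 0 and 3.17 CPM in the other classes. Within the immature GABAergic-like class, however, cells with an Isl1 UMI had less Mpped2 than cells without it. Their levels were 235.4 against 756.1 CPM in the 190 cell aliquot and 697.7 against 1459.4 CPM in the 951 cell aliquot. Carhsp1 was at 228.1 and 305.4 CPM in immature GABAergic-like and at 183.5 and 197.2 CPM in cycling cells, against 49.9 and 62.9 CPM in radial glia-like cells.

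Of 26 annotated genes within 1000000 bases of Mpped2 on chromosome 2, 11 were in the Illumina matrix, 6 had a UMI in the 7 classes and 4 passed the filter. Pax6, a transcription factor of radial glia and other progenitors at 996 kb from Mpped2, was called lower in 4 comparisons, namely in cycling against radial glia-like cells (log2 -0.73, where 5.84% of all genes were called lower), in immature glutamatergic-like against intermediate progenitor-like cells (log2 -2.32, 3.78%), in mature against immature glutamatergic-like cells (log2 -1.87, 1.44%) and in mature against immature GABAergic-like cells (log2 -1.81, 1.48%). Elp4, a subunit of the Elongator complex, was called higher in immature GABAergic-like than in immature glutamatergic-like cells (log2 1.76, SE 0.50, adjusted p = 0.0251), with 35.1 and 34.1 CPM against 3.18 and 12.5 CPM, where 2.26% of all genes were called higher. Immp1l, a mitochondrial inner membrane peptidase, and Dnajc24 were called lower in intermediate progenitor-like than in radial glia-like cells (log2 -1.42 and -1.25), where 8.56% of all genes were. None of the 4 was called in mature GABAergic-like against mature glutamatergic-like cells, where 9.07% of all genes were. With 4 genes, these counts say nothing about the neighbourhood as a whole. The protein-coding neighbours nearest to Mpped2 in the matrix had few UMIs, with 64 for Arl14ep, 34 for Kcna4 and 0 for Fshb.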

How the data were processed

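The deposited Illumina values are unnormalised UMI counts of each gene in each cell, from Cell Ranger 2.0 on mm10. The Nanopore values are unnormalised UMI counts of each Gencode vM18 isoform, made with minimap2 and 1 consensus sequence per UMI whose exon structure fully matched an isoform with a margin of 2 bases. UMIs without an isoform were not analysed here. Cells with fewer than 1400 genes were left out. Cells were clustered with Seurat 5.3.0 on both aliquots integrated, without Mpped2, and doublets were called with Scrublet in scanpy 1.11.5 (3 and 4 cells) and kept. Sums of UMI counts by class and aliquot entered edgeR 4.0.16 (R 4.3.3, TMM, filterByExpr, robust quasi-likelihood F test, Benjamini-Hochberg adjusted p under 0.05), and the SE was taken from the fold change and F. The test was also run on counts simulated from a common profile with independent aliquots. The real sums of an aliquot are correlated, so that run does not show how the test behaves on them. Median depth was 8048.5 and 7551.0 Illumina UMIs and 4394.0 and 4487.0 Nanopore UMIs per cell in the 190 and the 951 cell aliquot, and sums held 96440 to 2706139 Illumina UMIs.

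The aliquot number pairs the samples, since both platforms read the cDNA of one set of droplets and the classes of an aliquot share its library. Their deviations from the group means correlated at 0.597 between platforms and at 0.139 to 0.338 over 21 pairs of classes. Isoform structures and sequences came from Gencode vM21 on GRCm38, in which all 6 isoforms matched by versioned identifier. Named genes were Mpped2, its isoforms, the members with the 3 largest changes among those called of 3 gene lists (phosphoesterases, striatal genes and chromosome 2 neighbours) and the 5 most and 3 least alike genes. The splits of cells by striatal and GABAergic genes, and the genes shown for them, were chosen after values were seen. The members and lists were chosen with earlier results of these data known. Alternatives were DESeq2 1.42.0, no filter, a replicate block, leaving out sums, doublets or shared barcodes, Mpped2 among the clustering genes, and Nanopore sums.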

Additional observations from a re-analysis of the deposited data

How the results depend on the processing

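With the replicate block (the paired fit) the calls of mature GABAergic-like minus mature glutamatergic-like cells (log2 0.71) and of Nanopore minus Illumina (log2 0.22) were gained, and it changed no other call of Mpped2. Over the sums left out in turn, log2 values ran from 0.61 to 1.34 for cycling minus radial glia-like cells, from -0.08 to 0.04 for intermediate progenitor-like minus radial glia-like cells, from -0.06 to 0.07 for immature glutamatergic-like minus intermediate progenitor-like cells, from 0.04 to 0.19 for mature minus immature glutamatergic-like cells, from 1.5 to 2.37 for immature GABAergic-like minus immature glutamatergic-like cells, from -1.66 to -0.69 for mature minus immature GABAergic-like cells, from 0.19 to 0.89 for mature GABAergic-like minus mature glutamatergic-like cells and from -0.04 to 0.45 for Nanopore minus Illumina. A sum left alone in its class was taken to vary like the other classes. With Nanopore sums the calls of cycling minus radial glia-like cells (1.05) and of mature minus immature GABAergic-like cells (-1.08) were lost, on 5004 genes tested. Values near 0 changed sign without the filter (0.04, intermediate progenitor-like minus radial glia-like cells), and, for immature glutamatergic-like minus intermediate progenitor-like cells, with DESeq2 (-0.02) and with Mpped2 among the clustering genes (-0.04). Without the cycling cells that had a UMI of Dlx6os1, Dlx5 or Gad2 the cycling class gave -0.50. The call of immature GABAergic-like minus immature glutamatergic-like cells held under each alternative run.

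The pooled share of Mpped2-202 ran from 70.0 to 72.0% over the aliquots alone, and the mean share of the cell's own major isoform from 79.1 to 79.5%. With at least 5 or 15 UMIs per cell the latter was 78.3% and 81.7%, on 149 and 16 cells. By class, the 2 aliquots alone gave 79.6 to 88.3% in cycling radial glia-like, 66.2 to 73.3% in immature GABAergic-like and 52.2 to 64.9% in mature GABAergic-like cells. In these 3 classes the 190 cell aliquot, on 60, 65 and 23 UMIs, lay outside the interval of both aliquots. The number of genes called over all genes was 1726 with the replicate block and 329 with DESeq2 for cycling minus radial glia-like cells (1049 in the main analysis), 638 with DESeq2 for intermediate progenitor-like minus radial glia-like cells (1350), 1147 and 232 for immature glutamatergic-like minus intermediate progenitor-like cells (667), 943 and 75 for mature minus immature glutamatergic-like cells (298), 814 and 215 for immature GABAergic-like minus immature glutamatergic-like cells (439), 490 and 93 for mature minus immature GABAergic-like cells (231), 1261 and 322 for mature GABAergic-like minus mature glutamatergic-like cells (767), and 3071 with DESeq2 between platforms (4976). Class sums of the 190 cell aliquot held 20 to 86 Mpped2 Nanopore UMIs, which limits what its shares can show.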
